A study of Mus musculus with 2 samples.

Results

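Granzymes and perforin, the granule proteins with which lymphocytes kill, were followed through 2 single-cell RNA libraries of mouse breast tumours. The 9 genes Gzma, Gzmb, Gzmc, Gzmd, Gzme, Gzmf, Gzmg, Gzmk and Prf1 were taken by symbol from the 55357 genes of both matrices, and each had UMIs (unique molecular identifiers, 1 per captured RNA molecule) in both libraries. The tumours grew from 4T1 cells, a triple-negative breast cancer line, in BALB/c mice. In the AptCD4-LNT group, mice were given AptCD4-LNT, which the study's title aims at CD4+ T cells and the labels dose as cells of a kind they do not name, every 3 days with 5000000, then 4000000, then 3000000 cells, and tumours were taken on day 9. In the Untreated group, mice carried the same tumours and had PBS. Given cells and cells of the mouse itself cannot be told apart in the AptCD4-LNT library. Each group was 1 library made from 3 mixed tumours, so no value could be set against the spread between animals and no test was made.

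Granzymes are serine proteases stored in cytotoxic granules, bound to the proteoglycan serglycin and kept inactive by an N-terminal dipeptide until cathepsin C removes it. On contact with a target, the granule empties, perforin (the product of Prf1) opens pores in the target membrane, and granzymes enter. Granzyme B cuts proteins of the target cell and starts apoptosis, while granzymes A and K are trypsin-like proteases. Gzmc to Gzmg belong to a group of closely related genes found in rodents, whose substrates are less well known, and several of them are made by uterine NK cells of pregnant mice.

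Gzmb (ENSMUSG00000015437), Gzmc (ENSMUSG00000079186), Gzmd (ENSMUSG00000059256), Gzme (ENSMUSG00000022156), Gzmf (ENSMUSG00000015441) and Gzmg (ENSMUSG00000040284) lie on chromosome 14 in the order Gzme, Gzmd, Gzmg, Gzmf, Gzmc, Gzmb, with Gzmn between Gzmg and Gzmf. Gzma (ENSMUSG00000023132) and Gzmk (ENSMUSG00000042385) lie on chromosome 13, and Prf1 (ENSMUSG00000037202) on chromosome 10. The promoters of 5 chromosome 14 members are printed because Gzmc, Gzmd, Gzme and Gzmf were found together in single T cells beside Gzmb, while Gzme stood apart from Gzmf in fibroblasts. Each runs from 250 bases before to 50 after the RefSeq start in build GRCm38.p6, on the minus strand, at chr14:56262285-56262584 for Gzmb, chr14:56234608-56234907 for Gzmc, chr14:56132544-56132843 for Gzmd, chr14:56120576-56120875 for Gzme and chr14:56211358-56211657 for Gzmf. Capitals mark matches to Runx (TGTGGT or its reverse complement ACCACA), AP-1 (TGANTCA) and T-box (TCACAC or GTGTGA) motifs.
Gzmb: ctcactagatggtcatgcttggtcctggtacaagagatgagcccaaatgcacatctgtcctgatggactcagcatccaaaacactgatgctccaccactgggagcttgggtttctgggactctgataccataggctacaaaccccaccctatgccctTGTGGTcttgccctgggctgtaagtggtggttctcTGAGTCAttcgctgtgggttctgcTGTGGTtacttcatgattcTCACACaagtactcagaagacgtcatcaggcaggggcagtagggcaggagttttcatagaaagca
Gzmc: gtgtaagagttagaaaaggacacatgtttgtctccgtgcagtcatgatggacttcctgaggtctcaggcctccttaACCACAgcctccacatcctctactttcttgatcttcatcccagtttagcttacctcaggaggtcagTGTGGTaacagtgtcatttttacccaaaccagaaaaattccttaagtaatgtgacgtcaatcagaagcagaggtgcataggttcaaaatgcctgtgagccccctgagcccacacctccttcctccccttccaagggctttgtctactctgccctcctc
Gzmd: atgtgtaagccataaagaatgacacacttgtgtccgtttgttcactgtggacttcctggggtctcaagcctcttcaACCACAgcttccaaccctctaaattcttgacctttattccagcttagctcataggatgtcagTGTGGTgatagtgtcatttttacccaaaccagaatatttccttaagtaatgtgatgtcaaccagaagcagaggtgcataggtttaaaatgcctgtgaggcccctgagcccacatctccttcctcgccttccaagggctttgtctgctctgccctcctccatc
Gzme: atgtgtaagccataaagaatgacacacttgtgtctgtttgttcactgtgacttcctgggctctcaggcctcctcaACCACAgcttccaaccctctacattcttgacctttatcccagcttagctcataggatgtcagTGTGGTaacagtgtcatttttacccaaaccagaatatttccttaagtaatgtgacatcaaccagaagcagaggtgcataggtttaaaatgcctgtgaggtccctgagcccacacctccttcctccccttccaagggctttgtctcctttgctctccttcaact
Gzmf: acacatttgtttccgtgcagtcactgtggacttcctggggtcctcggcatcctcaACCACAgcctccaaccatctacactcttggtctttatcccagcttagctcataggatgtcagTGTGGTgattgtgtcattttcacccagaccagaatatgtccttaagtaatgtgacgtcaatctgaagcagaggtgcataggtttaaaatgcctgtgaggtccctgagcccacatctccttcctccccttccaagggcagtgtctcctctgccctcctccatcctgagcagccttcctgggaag

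Promoters of Gzmc, Gzmd, Gzme, Gzmf and Gzmg shared 86.1% (Gzmc and Gzmd) to 94.0% (Gzmd and Gzme) of aligned bases with one another. The Gzmb promoter shared 56.0% (with Gzme) to 61.2% (with Gzmd) with these. Each of the 5 closely related promoters held the Runx letters on both strands, ACCACA first and TGTGGT nearer the start, for Gzmc at bases -174 and -108 from the start and for Gzme at -175 and -113. Gzmb held TGTGGT at -93 and -34, the AP-1 match TGAGTCA at -58 and a T-box match at -15. The Runx letters were in 8 of the 9 member promoters, all but that of Gzmk, against 16.9% of 27025 mouse promoters of the same length. AP-1 letters were in 1 of 9 (Gzmb) against 7.93%, T-box letters in 2 of 9 (Gzmb and Gzmk) against 14.4%, and ETS letters (CCGGAA or TTCCGG) in 1 of 9 (Gzmk) against 15.2%. A match shows only that the letters are in the window. No match overlapped another.

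The likeness extends to the transcripts. In the GENCODE M21 annotation, Gzmd and Gzme transcripts were 94.8% identical over aligned bases, and 7 of the 875 possible 90-base windows of Gzmd occurred unchanged in Gzme and 12 in Gzmg. Counts of Gzmd, Gzme and Gzmg may therefore share reads that were assigned between them, and ratios between these genes are uncertain to that extent.

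After removal of poor barcodes and doublets, 8633 AptCD4-LNT cells and 18336 Untreated cells remained, with a median of 8589 and 4482 UMIs. Cell classes were named from marker genes, on clusters made without the 9 genes. The T-like class held 66 AptCD4-LNT cells (0.765%) and 464 Untreated cells (2.53%), at a median of 2575 and 1523.5 UMIs. NK-like cells numbered 44 (0.510%) and 11 (0.0600%). In T-like cells all 8 T cell markers were found in both libraries, summing to 5533 and 7001 CPM (UMIs of a gene per 1000000 UMIs of the class). In NK-like cells 6 of 8 and 5 of 8 NK markers were found, summing to 3545 and 4338 CPM. Klra4 and Klra8 were at 0 in NK-like cells of both libraries, Klrb1c at 0 in the 11 Untreated ones, and the T cell markers summed to 1925 and 1627 CPM there. NK markers in T-like cells summed to 347 and 250 CPM, with Ncr1 (the NK receptor NKp46) at 21 UMIs in the AptCD4-LNT library, 19 of them in 1 cell, and at 0 in the Untreated library.

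A feature of the Untreated library touches every count of cells. Among barcodes of the T and NK cluster with 2000 UMIs or more, 93 of 245 (38.0%) in the Untreated library, against 2 of 94 (2.13%) in the AptCD4-LNT library, had at least 1 partner whose counts over 100 or more genes differed by no more than sampling noise. The same held for 47.1% and 1.23% of barcodes in the Acta2-high fibroblast-like cluster. Such sets may each come from 1 cell, and why they are there was not tested. Results are given with every barcode counted. As an alternative, 1 barcode per set was kept for the ratios, shares and co-detection in T-like cells. That left Gzmd and Gzmg with ratios of 0.16 and 0.17 in place of -0.15 and -0.21. Cells of the Acta2-high fibroblast-like cluster with a UMI of each member were counted this way too. The alternative was not computed for the other results. Of all barcodes, 42 occurred in both libraries, and 0 of them were T-like or NK-like in both. All intervals are exact 95% intervals that cover counting error only.

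Summed over all cells, Gzmc was the member that was higher in the AptCD4-LNT library. Gzmc had 2752 UMIs in the AptCD4-LNT library and 1763 in the Untreated library, a log2 ratio of 0.89 (0.81 to 0.98) once scaled to library totals. Past a limit of 1.5-fold, counted here and below only where the interval of the log2 ratio excluded 0, 1 of 9 members was higher and 7 of 9 were lower, where 12.3% of 19792 genes were higher and 5.15% lower by the same rule. The member furthest below was Gzmf, with 126 UMIs in the AptCD4-LNT library and 1369 in the Untreated library (log2 ratio -3.19). Gzmk had 39 and 335 UMIs (-2.85), and Gzmb 1470 and 5693 (-1.70). Gzmd, at 615 and 1011 UMIs (-0.47), did not pass the limit. In a whole library, fewer killer cells and less RNA in each cannot be told apart, so the members are followed below by cell class.

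**Figure D1:**
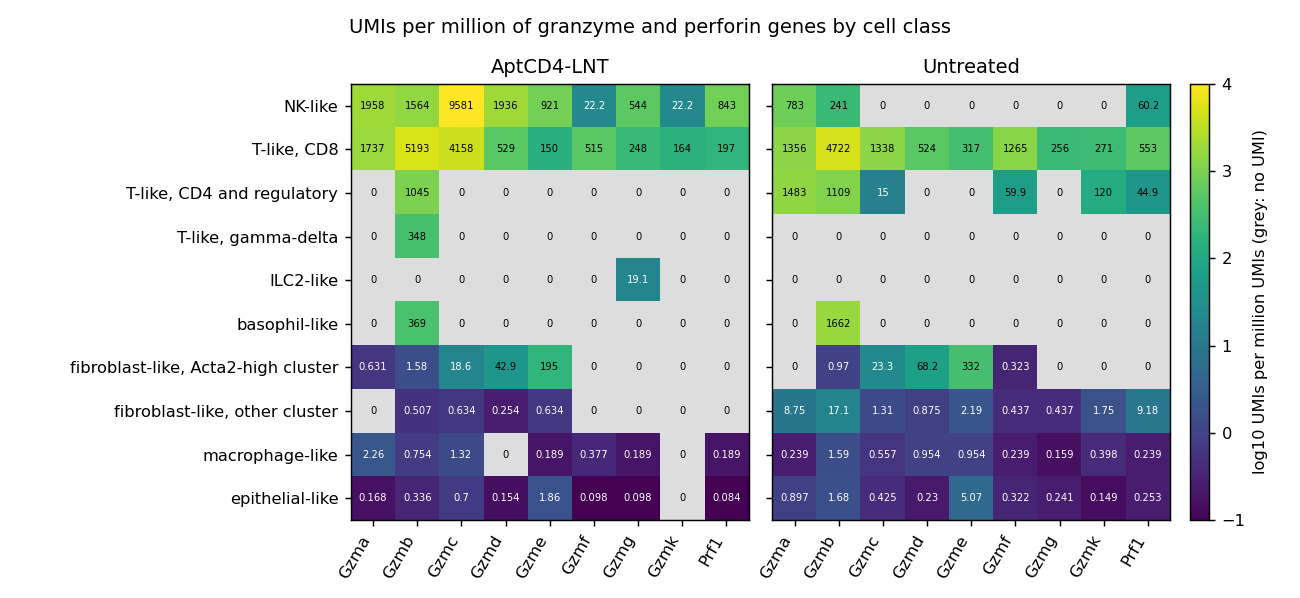
CPM of the 9 genes (columns) in 10 cell classes (rows) of the AptCD4-LNT library (left) and the Untreated library (right), with colour on a log10 scale and grey where no UMI was found. T-like CD8 cells held all 9 genes in both libraries, NK-like cells held Gzmc at 9581 CPM in the AptCD4-LNT library and at 0 in the Untreated library, and Gzme reached 195 and 332 CPM in the Acta2-high fibroblast-like cluster.

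In T-like cells, the log2 ratios of granzymes A and B had intervals that include 0, while perforin was lower in the AptCD4-LNT library. Gzmb had 1136 UMIs (4426 CPM, 4173 to 4691) in the AptCD4-LNT library and 4788 UMIs (4470 CPM, 4345 to 4599) in the Untreated one, with a log2 ratio of -0.01 (-0.11 to 0.08). Gzma, at 1446 and 1357 CPM, had a ratio of 0.09 (-0.08 to 0.26). These ratios did not hold at 0 under every definition of the T cells: Gzma was at -0.46 (-0.67 to -0.26) by a per-cell gate on T cell receptor UMIs and at -0.39 (-0.55 to -0.22) with the 9 genes left in the clustering, and Gzmb at -0.61 with cells weighted equally and -0.55 over the whole T and NK cluster. Prf1 had 42 UMIs (164 CPM) in AptCD4-LNT and 555 UMIs (518 CPM) in Untreated T-like cells, at a log2 ratio of -1.66 (-2.15 to -1.21). The Prf1 ratio was -0.32 with the 9 genes left in the clustering and -0.30 over the whole T and NK cluster, neither past 1.5-fold. Gzmk, a tryptase often found in less differentiated CD8 T cells, had 35 and 279 UMIs (136 and 260 CPM, -0.93).

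The chromosome 14 genes had unequal ratios. Gzmc was higher, with 888 UMIs (3460 CPM, 3236 to 3695) in AptCD4-LNT T-like cells and 1337 UMIs (1248 CPM, 1182 to 1317) in Untreated ones, at a log2 ratio of 1.47 (1.35 to 1.59). Gzmf was lower, at 110 and 1267 UMIs (429 and 1183 CPM, -1.46), and so was Gzme, at 32 and 316 UMIs (125 and 295 CPM, -1.24). Gzmd (440 and 488 CPM, -0.15) and Gzmg (207 and 239 CPM, -0.21) had intervals that include 0. With the 9 genes left in the clustering Gzmd was at 0.95 (0.78 to 1.12) and Gzmg at -0.81, over the whole T and NK cluster they were at 0.67 and -1.11, and by the gate Gzmg was at -5.17 (-8.23 to -3.29). A mixed class of 8 AptCD4-LNT and 93 Untreated cells, whose sub-clusters carried T cell genes together with myeloid or epithelial genes, was kept out of these sums and held 2 and 658 Gzmb, 0 and 301 Gzmc and 0 and 604 Gzmg UMIs. With it added, a choice made after seeing the data, Gzmc was at 1.27, Prf1 at -1.64, Gzmd at -0.59 and Gzmg at -1.87 (-2.30 to -1.47). In all, 1 of 9 members was higher and 4 of 9 (Gzme, Gzmf, Gzmk and Prf1) lower by 1.5-fold, against 6.76% and 2.65% of 6789 genes in T-like cells. The median over the members was -0.21, and 0.06 over all these genes. Summed UMIs are not scaled by gene length or to cells, so these values do not rank one gene's RNA against another's.

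The sums rested on very few cells in the AptCD4-LNT library. Of the 888 Gzmc UMIs there, the 5 highest of 11 positive cells held 95%, and 3 cells held 50%, while in Untreated T-like cells the 5 highest of 101 positive cells held 37.5%. The highest AptCD4-LNT T-like cells held 239, 192, 190, 184 and 39 Gzmc UMIs, and the highest Untreated T-like cell held 207. Without the 5 highest cells of each library the Gzmc ratio turned to -1.85 (-2.33 to -1.42), but that takes 5 of 66 cells in the AptCD4-LNT library against 5 of 464 in the Untreated one, so by its construction it lowers the ratio. With an equal share removed, 5 and 35 cells, an alternative chosen after seeing the data, Gzmc was at 0.01 (-0.50 to 0.49), Gzmb at -0.91 (-1.13 to -0.70), Gzma at -0.23 (-0.61 to 0.14) and Prf1 at -1.78 (-2.76 to -0.94). Gzmd was in 3 AptCD4-LNT T-like cells, 109 of its 113 UMIs in 1 of them, and Gzmg in 3, with 51 of 53 UMIs in 1. Gzmk was spread thinly instead: in Untreated T-like cells it was in 167 cells, at a median of 1 UMI, and the 5 highest held 10.4%. The ratios of Gzmf, Gzmk and Prf1 were below 0 under all 15 alternatives computed, at -0.97, -0.57 and -0.30 where nearest to it, and that of Gzme under 11 of 13.

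One of these AptCD4-LNT cells lacked UMIs of the CD3 genes and Trac. The cell with 192 Gzmc UMIs had 19 Ncr1 UMIs and no UMI of Cd3d, Cd3e, Cd3g or Trac, but 4 of the T cell marker Trbc1. Without T-like cells of that kind, an exclusion chosen after seeing the data, the Gzmc ratio was 1.25 (1.12 to 1.38). T cells picked by their own T cell receptor UMIs, with no cluster, gave 0.97 (0.78 to 1.16), from 52 AptCD4-LNT and 236 Untreated cells. With the 9 genes left in the clustering, it was 2.35, and the ratio of Gzme turned to 0.51. The size of the Gzmc ratio and the sign of the Gzme ratio thus changed with the boundary of the T-like class.

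**Figure D2:**
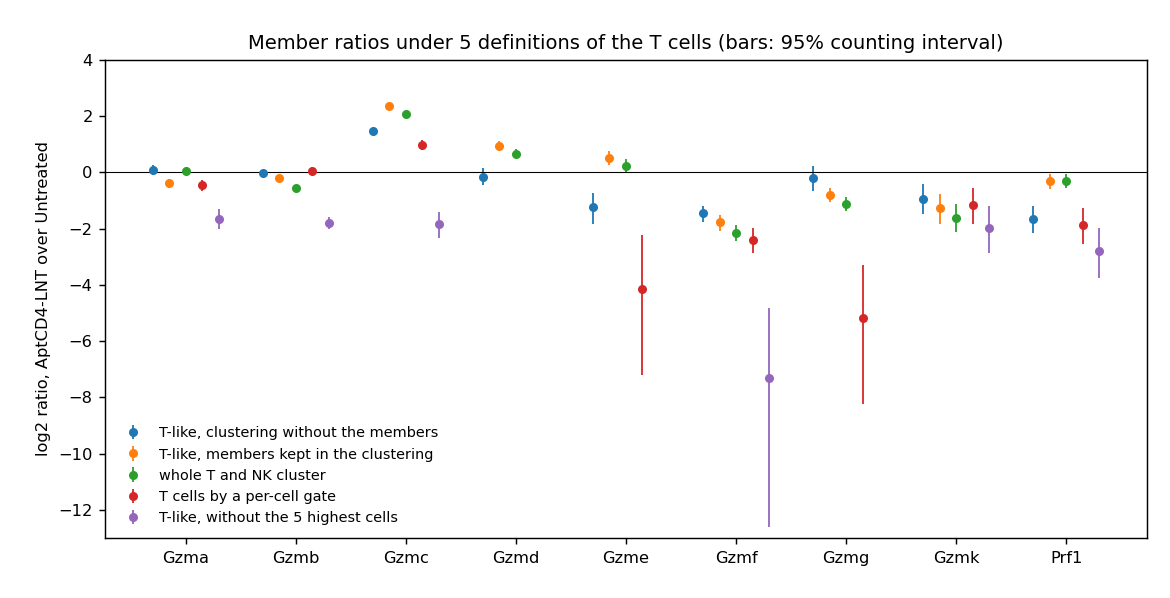
Log2 ratios, AptCD4-LNT over Untreated, of the 9 genes under 5 definitions of the T cells, with 95% counting intervals. Gzmc runs from 2.35 to -1.85 between definitions, Gzmf and Gzmk lie below 0 under all 5, and points are missing where the AptCD4-LNT library had no UMI left (Gzmd under the gate, and Gzmd, Gzme and Gzmg without the 5 highest cells). Removing 5 cells takes a larger share of the AptCD4-LNT cells than of the Untreated cells.

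Most T-like cells were CD8 T-like, 47 in the AptCD4-LNT library and 419 in the Untreated library, and these held most member UMIs, such as 1109 of 1136 and 4714 of 4788 for Gzmb. Within the CD8 T-like cells, a sub-cluster of 7 AptCD4-LNT and 71 Untreated cells had Gzmb at 12591 and 7125 CPM, and Gzmc at 7744 and 2289. Another, of 24 and 59 cells, had Gzmb at 285 and 669 CPM and no Gzmd, Gzme, Gzmf or Gzmg in either library. That sub-cluster was the least clearly CD8: Cd8a stood at 361 and 137 CPM and Cd4 at 95.1 and 137, and its 10 leading genes included T cell genes and Icos but no CD8 gene. It made up 36.4% of the T-like class in the AptCD4-LNT library and 12.7% in the Untreated one. CD4 and regulatory T-like cells, 9 and 39, had Gzmb at 18 and 74 UMIs (1045 and 1109 CPM). Gzma was at 0 in the 9 AptCD4-LNT CD4 and regulatory cells and at 99 UMIs in the 39 Untreated ones. The 39 Untreated cells also held 8 Cd8a and 12 Cd8b1 UMIs. By single genes, Untreated cells of the T and NK cluster with Cd4, no CD8 gene and no Ncr1 held 32 Gzmb UMIs and 0 of Gzma. The 99 Gzma UMIs are therefore not read as a level of CD4 T cells. In gamma-delta T-like cells, 10 and 6, Gzmb had 9 and 0 UMIs, and the other 8 members were at 0.

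NK-like cells of the AptCD4-LNT library carried the highest Gzmc level of any named class. Gzmc had 1727 UMIs in the 44 AptCD4-LNT NK-like cells (9581 CPM, 9134 to 10043) and 0 in the 11 Untreated ones. Gzmd had 349 and 0 UMIs, Gzme 166 and 0, and Gzmg 98 and 0. With the Untreated cells set at a floor of 3 UMIs, these are 53.0-fold, 10.7-fold, 5.10-fold and 3.01-fold higher. The exact lower limits of the log2 ratio, 5.43, 3.12, 2.03 and 1.26, stand for smaller folds than these. The Untreated NK-like cells hold 16599 UMIs in all. Gzma had 353 and 13 UMIs (1958 and 783 CPM, log2 1.32), Gzmb 282 and 4 (2.70), and Prf1 152 and 1 (3.81, 1.31 to 9.12). Gzmf and Gzmk had 4 UMIs each in AptCD4-LNT NK-like cells and 0 in Untreated ones. The other 7 members were all higher by 1.5-fold, against 2.96% of 1827 genes with 20 or more UMIs in this class that were higher and 3.23% that were lower, but each reached that minimum only through the AptCD4-LNT cells, so nothing is read from that count.

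Gzmc, too, sat in a few of these cells. The 9 positive AptCD4-LNT NK-like cells were led by 1 with 828 UMIs, then 615, 129 and 103, and the 5 highest held 98.8%. Without them the level was 209 CPM, below the upper limit of 222 CPM that goes with the 0 Gzmc UMIs of Untreated NK-like cells. Gzma was more even: 23 of 44 cells had it, the 5 highest held 55.8%, and its level without them was 941 CPM. The 2 leading Gzmc cells also held 164 and 130 Gzmd UMIs and 57 and 40 Prf1 UMIs, with 31 and 11 of Ncr1. The first also had 18 Cd3d, 31 Cd3g, 12 Trbc1 and 2 Trbc2 UMIs, but none of Cd3e or Trac. The second had 9 Trbc1 and 8 Trbc2 UMIs, and none of Cd3d, Cd3e, Cd3g or Trac.

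**Figure D3:**
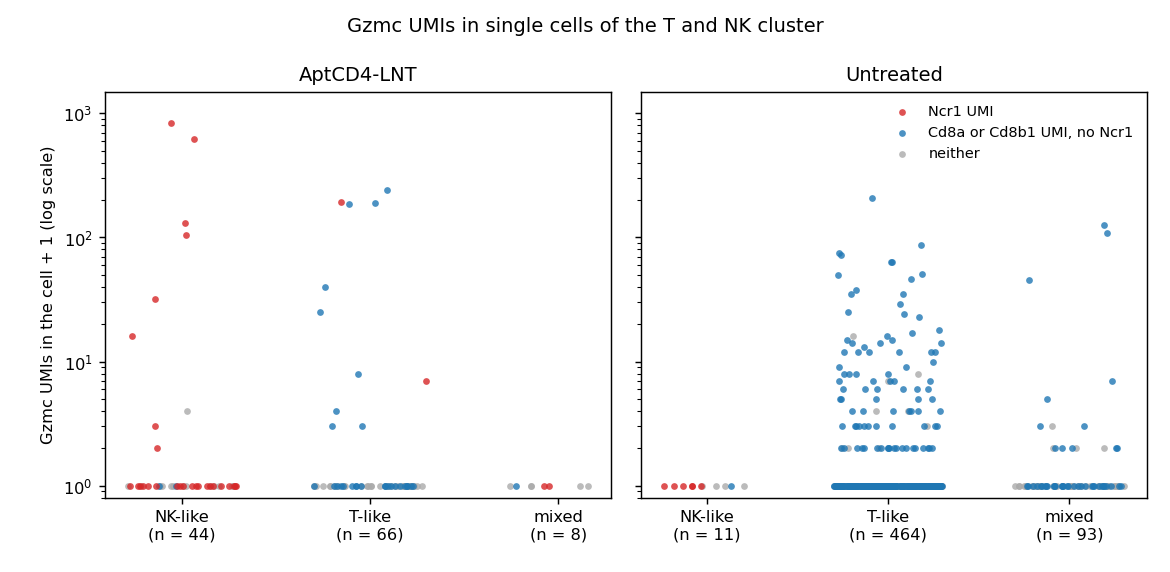
Gzmc UMIs plus 1 in each cell of the T and NK cluster (log axis), by class, in the AptCD4-LNT library (left) and the Untreated library (right), coloured by UMIs of Ncr1 or of the CD8 genes. Cells with 100 or more Gzmc UMIs numbered 8 in the AptCD4-LNT library, 5 with Ncr1, and 3 in the Untreated library, none with Ncr1.

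Sorted by single genes, most Gzmc UMIs lay in Ncr1 cells in the AptCD4-LNT library and in CD8-gene cells in the Untreated one. Cells with an Ncr1 UMI held 1922 of 2615 Gzmc UMIs (73.5%) of the AptCD4-LNT T and NK cluster and 0 of 1638 of the Untreated one. Cells with a CD8 gene and no Ncr1 held 26.4% and 97.3%. In the AptCD4-LNT library, Ncr1 cells likewise held 75.5% of Gzmd, 83.8% of Gzme and 70.7% of Prf1, and at most 0.696% of any member in the Untreated library. Gzmf, Gzmk, Gzmb and Gzma went the other way, with 96.5%, 87.2%, 74.7% and 50.1% in CD8-gene cells of the AptCD4-LNT library and 3.51%, 7.69%, 21.9% and 36.6% in Ncr1 cells. Ncr1 cells numbered 32 in the AptCD4-LNT library and 6 in the Untreated one. Of the 32, 10 held Gzmc, 4 held Gzmd, 4 held Gzme and 18 held Prf1. Single cells held 828 and 615 of the 1922 Gzmc UMIs. The percentages therefore rest on few cells, and the 0 of the Untreated library rests on 6.

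At a depth of 1000 UMIs, every member was found in a smaller share of AptCD4-LNT than of Untreated T-like cells. The difference ran from -2.46 percentage points for Gzmg to -15.4 for Prf1 and -23.7 for Gzmb. Cells were thinned to 1000 UMIs, which left out 1 AptCD4-LNT and 139 Untreated T-like cells below that depth. Gzmb was then found in 24 of 65 AptCD4-LNT cells (36.9%, 25.3% to 49.8%) and 197 of 325 Untreated cells (60.6%, 55.1% to 66.0%). Prf1 was in 9.23% (3.46% to 19.0%) and 24.6% (20% to 29.7%). Unthinned, Gzmb was in 48.5% and 59.9%, and Prf1 in 19.7% and 30.6%. Gzma (16.9% and 25.5%), Gzmc (10.8% and 20.3%) and Gzmk (9.23% and 19.4%) had overlapping intervals, as did Gzmd, Gzme, Gzmf and Gzmg, at 1.54% to 7.69% and 4.00% to 12.0%. These intervals treat cells of 1 library as separate draws. How many of all genes were in a smaller share at this depth, or have intervals that lie apart, is not given. Nothing is therefore read from the number of members in a smaller share or from whether intervals overlap.

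Cells with no member at all made up 58.5% in the AptCD4-LNT library and 23.7% in the Untreated one at this depth, and 3 or more were found in 16.9% and 26.2%. Among cells of the CD8 T-like sub-clusters alone, Gzmb was in 41.3% (27% to 56.8%) and 63.6% (57.8% to 69.1%). The least clearly CD8 sub-cluster, with Gzmb at 285 and 669 CPM, made up 24 of 47 and 59 of 419 of these cells before thinning. It was 36.4% and 12.7% of all T-like cells. The make-up of the class and detection within each sub-cluster were not separated in any of these shares. With 1 barcode kept per alike set, the difference in the Gzmb share was -19.8 percentage points, against -23.7 with all barcodes. In epithelial-like cells, taken as a background for Gzmb, Gzmb was in 0% and 0.208% of cells thinned to 1000 UMIs, from medians of 17363 and 7067 UMIs. Unthinned, Gzme was in 98 and 341 of the 3854 and 9890 epithelial-like cells, so they are not used as a background for it. The summed Gzmb level had its ratio of -0.01 beside these T-like shares, and 1 AptCD4-LNT cell with 521 Gzmb UMIs held 45.9% of that library's T-like total.

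Within single T-like cells, granzyme genes of chromosome 14 occurred together, though Gzmb also went with Gzma of chromosome 13. In the 325 Untreated T-like cells at 1000 UMIs, Gzmb was in 62 of the 66 Gzmc cells (93.9%), in 19 of 19 Gzmd cells, in 19 of 19 Gzme cells and in 38 of 39 Gzmf cells. Gzmd and Gzme shared 14 cells, where the product of their shares gives 1.11, a pair whose transcripts are nearly alike. Gzmc and Gzmf, whose transcripts share no 90-base window, shared 27 cells, against 7.92 from the product. Gzma was in 35.5% of the Untreated Gzmb cells, above its share over all these cells. In the AptCD4-LNT library, Gzmb was in 7 of 7 Gzmc cells and 11 of 11 Gzma cells.

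Gzmk did not follow this pattern. Gzmk and Prf1 shared 8 Untreated cells, against 15.5 from the product of their shares, and Gzmk and Gzmc shared 12, against 12.8. Gzma and Prf1 shared 21, against 20.4. Cells of 1 library and alike barcodes are not independent: with 1 barcode per alike set, Gzmb was in 92.0% of Untreated Gzmc cells, and Gzmd in 64.3% of Gzme cells in place of 73.7%.

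**Figure D4:**
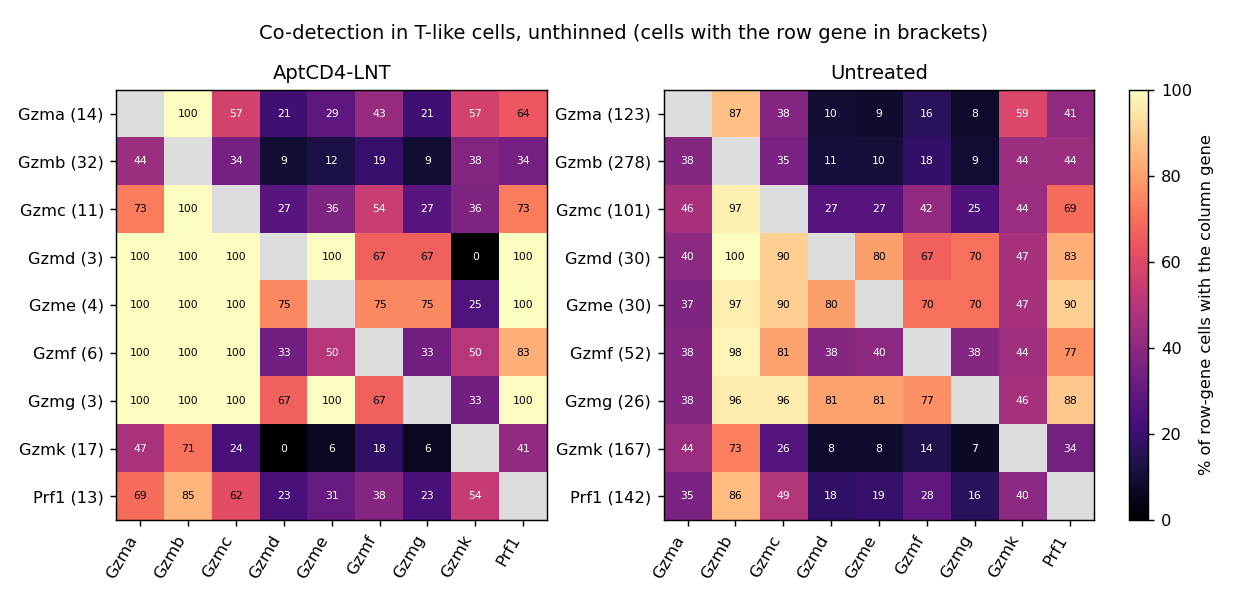
Percent of T-like cells with the row gene that also held the column gene, in the AptCD4-LNT library (left) and the Untreated library (right), unthinned, with the number of row-gene cells in brackets. Gzmb is found in nearly all cells with Gzmc, Gzmd, Gzme, Gzmf or Gzmg, and the AptCD4-LNT rows for Gzmd, Gzme and Gzmg rest on 3, 4 and 3 cells.

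Some state genes differed between member-positive and member-negative T-like cells of the Untreated library at equal depth. The pairs below are examples from a longer list of state genes, and the number of pairs that differed is not given. The T-like sub-clusters differ in member levels, and differences between and within them were not separated. Ccl5, a chemokine of memory and effector T cells, was in 6.06% (1.68% to 14.8%) of cells with Gzmc and 40.9% (34.9% to 47.2%) of cells without it. Pdcd1, the gene of the inhibitory receptor PD-1, was in 39.4% (27.6% to 52.2%) and 21.2% (16.4% to 26.7%) of these cells, while Gzmk cells had Ccl5 in 47.6% and cells without Gzmk in 30.5%. Havcr2, the gene of the receptor TIM-3, was in 27.5% of Prf1 cells and 9.39% of cells without Prf1. Il7r, the interleukin-7 receptor, was in 21.3% of Gzmb cells and 44.5% of cells without Gzmb. Among AptCD4-LNT cells, 0 of 7 Gzmc cells and 32.8% of the others had Ccl5.

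Across cells of the T and NK cluster, the genes most like the members included other members. Over 154 AptCD4-LNT and 582 Untreated cells and 2531 genes, Pearson's r of log-scaled UMIs between Gzmc and Gzmb was 0.52 and 0.51, and between Gzma and Gzmb 0.55 and 0.42. Prf1 was closest to Irf8, a transcription factor gene (0.52 and 0.34), and to Gzmb (0.40 and 0.40). Gzmb was also like Nkg7, a granule membrane protein gene (0.47 and 0.38), Actb and Cd8a, and Gzmc also like Prf1, Ctsd and Tpi1. These cells share a library and differ in depth, so the values are descriptions.

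Genes that build and release granules were held to the same 1.5-fold limit. Of 19 such genes with at least 20 UMIs in T-like cells, 2 were higher and 1 lower by 1.5-fold with an interval excluding 0, against 6.76% and 2.65% of all genes, with a median log2 ratio of -0.18. Serglycin (Srgn) had 1820 CPM in AptCD4-LNT T-like cells and 1506 in Untreated ones, Nkg7 962 and 1356, calreticulin (Calr) 440 and 542, and cathepsin W (Ctsw) 234 and 235. The 3 that passed were Unc13d and Stxbp2, which dock and prime granules (log2 1.34 and 1.32, from 14 and 23 and from 12 and 20 UMIs), and M6pr, a mannose 6-phosphate receptor that sorts granzymes (-0.88). Ctsl, a cathepsin gene, was at 31.2 and 58.8 CPM (-0.92), with an interval (-2.19 to 0.15) that includes 0. At a minimum of 50 UMIs, 0 of these genes were higher, and at a limit of 2-fold 0 were lower.

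Of 5 granzyme inhibitor genes, 1 was higher (Serpina3g, 1.30) and 2 were lower. Over all genes in T-like cells, 6.76% were higher and 2.65% lower by the same rule. With lists this short, here and for the granule genes above, nothing is read from the counts. Serpinb6b was at 109 CPM in AptCD4-LNT and 176 in Untreated T-like cells (-0.69), and Serpinb9b had 0 UMIs in the AptCD4-LNT library and 70 in the Untreated library. Serpinb9, which blocks granzyme B and shields killer cells from it, was at 136 and 202 CPM (-0.56) and did not pass. At 50 UMIs 0 inhibitor genes were higher, and at 2-fold 1 was lower. Of 8 genes of other killing routes, Tnf (1.56) and Slamf7 (1.31) were higher and 0 lower, and at 50 UMIs 1 was higher. Crtam, a receptor of killer cells, was at 15.6 and 28.9 CPM (-0.89), with an interval (-2.86 to 0.61) that includes 0. Klrk1 (281 and 275 CPM) and Fasl (113 and 110) did not pass, nor did Ifng at 97.4 and 143. Of 16 regulators of granzyme and perforin transcription, Il2ra, a chain of the interleukin-2 receptor, was higher (0.94) and Zeb2 lower (-1.24), and Il2ra did not reach 2-fold. Runx3 (495 and 450 CPM), Id2 (1048 and 1075) and Il2rb (725 and 725) did not pass. None of 6 genes of granzyme substrates passed. Gzmm had 1 and 2 UMIs in T-like cells, and Gzmn none.

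More Gzme UMIs came from fibroblast-like cells than from T-like cells. A fibroblast-like cluster marked by Acta2 (smooth muscle actin, 2328 and 1750 CPM, against 124 and 21.9 in the other fibroblast-like cluster) held 618 Gzme UMIs in 39 of 185 AptCD4-LNT cells (21.1%, 15.4% to 27.7%) and 1027 in 107 of 427 Untreated cells (25.1%, 21.0% to 29.5%). T-like cells held 32 and 316. Gzmd (136 and 211 UMIs) and Gzmc (59 and 72) were there too. Gzmb had 5 and 3 UMIs, Gzma 2 and 0, Gzmf 0 and 1, and Gzmg, Gzmk and Prf1 none. The other fibroblast-like cluster, of 663 and 325 cells, had 5 and 5 Gzme UMIs.

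The fibroblast signal differed from that of lymphocytes in make-up. Gzme-positive cells of the Acta2-high cluster had 3 and 9 UMIs of 6 T cell genes in all, against 21760 and 20465 of Col1a1, Acta2 and Tagln. The 6 genes were Cd3d, Cd3g, Trac, Trbc1, Trbc2 and Cd8a. Cd3e was not among them, and 1 AptCD4-LNT Gzme-positive cell held 5 Cd3e UMIs. The 6 genes stood at 4.12 and 8.30 CPM in cells with Gzme and at 4.91 and 3.98 in cells without it. Killer genes (Gzma, Gzmb, Gzmf, Gzmg, Gzmk, Prf1 and Nkg7) stood at 6.87 and 1.85 CPM with Gzme and at 0.819 and 1.49 without. Gzmd made up 18% (15.4% to 21.0%) and 17.0% (15% to 19.3%) of the summed Gzmd and Gzme UMIs in that cluster, but 77.9% (70.3% to 84.4%) and 62.3% (59.0% to 65.6%) in T-like cells, and 67.8% in AptCD4-LNT NK-like cells. Since the 2 genes are nearly alike, the split depends on how reads were assigned. Gzme was at 195 CPM in the AptCD4-LNT cluster and 332 in the Untreated one. One AptCD4-LNT cell held 345 of the 618 UMIs, and without the 5 highest cells the levels were 46.6 and 281.

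**Figure D5:**
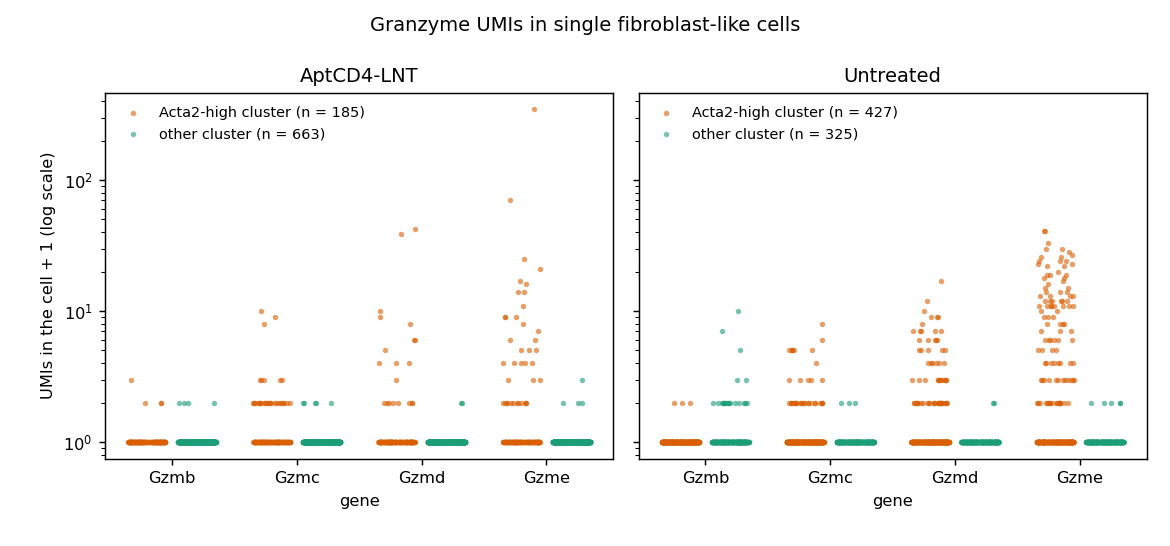
UMIs plus 1 of Gzmb, Gzmc, Gzmd and Gzme (log axis) in each fibroblast-like cell of the AptCD4-LNT library (left) and the Untreated library (right), by cluster. Gzme and Gzmd lie above 0 almost only in the Acta2-high cluster, where the highest Gzme cell holds 345 UMIs in the AptCD4-LNT library and 40 in the Untreated one.

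Members were also found outside lymphocytes and the Acta2-high cluster. Epithelial-like cells, 3854 and 9890, had 133 and 441 Gzme UMIs spread over 98 and 341 cells (1.86 and 5.07 CPM), which is 13.9% and 22.7% of all Gzme UMIs. The mixed class held 0% and 68.0% of all Gzmg UMIs, 0% and 23.3% of Gzmd, 0% and 17.1% of Gzmc and 2.08% and 20.3% of Gzma. Basophil-like cells, 7 in each library, had 6 and 15 Gzmb UMIs and no other member. In the Untreated library, 567 of 860 Gzmg UMIs of the T and NK cluster (65.9%) lay in 2 barcodes with 289 and 278, alike in their counts over 425 genes, and these also held 29 and 38 UMIs of the myeloid gene Lyz2 and were kept out of the T-like class.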

How the data were processed

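Each group was 1 droplet library of 3 mixed tumours. The deposited matrices hold raw UMI counts per gene and barcode, made by the authors with Cell Ranger 7.2.0 on GRCm39 per the submitters' processing notes; 98968100 UMIs in 8931 barcodes (AptCD4-LNT) and 131295224 in 20040 (Untreated), with 0 columns of other series. Barcodes with under 200 genes or over 20% mitochondrial UMIs (78 and 39) and Scrublet doublets (220, 2.49%, and 1665, 8.32%) were removed. Counts scaled to 10000 were clustered without the 9 members (scanpy 1.11.5, 2000 variable genes, 30 components, 15 neighbours, resolution 1), giving 22 clusters; the cluster of T and NK cells was divided into 14 sub-clusters. Names came from markers; naming limits and the limit for alike barcodes (chi-square per gene of 1.15 or less over 100 or more genes) were set after seeing the data. Members and lists were chosen with earlier results of these data known. From each list at most 4 genes with most UMIs were named, plus those past 1.5-fold with an interval excluding 0. Levels are UMIs per 1000000; ratios have exact conditional intervals, shares exact Clopper-Pearson ones, and genes needed 20 UMIs. Molecules come with unique identifiers, and 1 library per group allows no test. Promoters came from RefSeq (GRCm38.p6), whose build differs from the files', so no other coordinates are given; 9 of 9 members matched. Calculations were tested on simulated data. Alternatives are named in the closing section.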

Additional observations from a re-analysis of the deposited data

How the results depend on the processing

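No paired analysis was possible because each group is 1 library, and leaving out replicates was not possible either. In T-like cells the Gzmc log2 ratio of 1.47 was 1.64 with no doublet removal, 2.35 with the members in the clustering, 0.97 by the per-cell gate, 2.07 over the whole T and NK cluster, 0.71 with cells weighted equally, 1.84 scaled to CD3 and T cell receptor UMIs, 1.25 without Ncr1 cells lacking CD3 (chosen after seeing the data), 1.27 with the mixed sub-clusters added, 0.01 without an equal share of highest cells (both chosen after seeing the data) and turned to -1.85 without the 5 highest cells of each library, which are unequal shares. Gzmb, at -0.01, was 0.09, -0.20, 0.06, -0.55, -0.61, 0.35, 0.07, -0.11, -0.91 and -1.80 in the same order. Prf1, at -1.66, was -0.32 with the members in the clustering, -0.30 over the whole cluster and -2.78 without the 5 highest cells. Gzme turned to 0.51 with the members in the clustering and 0.24 over the whole cluster. Members higher by 1.5-fold numbered 2 in place of 1 in those 2 settings, where members lower numbered 3 in place of 4, and 6 were lower by the gate and with the mixed sub-clusters. With 1 barcode per alike set (chosen after seeing the data), Gzmc was 1.58, Prf1 -1.56 and Gzmd 0.16. Gzmc in AptCD4-LNT NK-like cells, at 9581 CPM, was 8408 by a per-cell gate and, chosen after seeing the data, 209 without the 5 highest cells. The difference in the share of T-like cells with Gzmc, -9.54 points at 1000 UMIs, was 2.0 at 500. The per-cell gate gave no ratio for Gzmd, since 0 UMIs were left. Causes were not tested. Of all 67 values of main results under alternatives, 43 were labelled close, 23 moved and 1 turned. Of 199 of single genes, shares and lists, 156 were labelled close, 40 moved and 3 turned. These labels do not count every change of sign. The T-like ratio kept its sign in 9 of 15 alternatives for Gzmb, 10 of 15 for Gzma and 7 of 12 for Gzmd. It did so in 11 of 13 for Gzme and Gzmg, 14 of 15 for Gzmc, and all 15 for Gzmf, Gzmk and Prf1. The change from 4 to 6 members lower was labelled close. Depth limits the NK-like comparison, in which 11 Untreated cells held 16599 UMIs.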
